A study of Mus musculus with 4 samples.

Results

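Genes of actin assembly and of the myosin motors were followed in cultured mouse sensory neurons that received human PROM1 by lentivirus. They were chosen by symbol: actins, actin-related proteins, Arp2/3 subunits, WAVE proteins, Diaph formins, capping protein, profilins, thymosins, cofilins, tropomyosins, alpha-actinins and the heavy, light and unconventional myosins. The choice gave 63 genes from 86 listed transcripts, of 11259 genes in all. The neurons came from dorsal root ganglia (DRG) of day 13.5 mouse embryos, dissociated and grown as bulk cultures with nerve growth factor at 50 ng/ml and with fluorodeoxyuridine and uridine at 1 μM each, which act against dividing cells. Virus was given after 2 days in culture (DIV 2). The labels give DIV 5 for replating and also DIV 5 for the neurons used for RNA. Polyadenylated RNA was sequenced in 50-base single-end reads. The first group carried the virus for human PROM1 (CD133), a cholesterol-binding membrane protein of cell protrusions, in 2 libraries. Its control carried the pLKO virus, in 2 libraries. The sources used here do not give the share of cells that took up virus. PROM1 itself was not analysed here. The series text calls the samples biological duplicates.

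Actin monomers join into filaments at their growing ends, and the turnover of these filaments shapes the growth cone, the moving tip of an axon. Profilin hands monomers to the growing end, thymosins hold them in reserve, and cofilin severs older filaments. The Arp2/3 complex, switched on by WAVE proteins, starts branches, formins elongate straight filaments and capping protein stops growth. Tropomyosins and alpha-actinins bind along filaments. Myosin II pulls on them, while the unconventional myosins carry cargo or link membranes to actin.

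Levels are in FPKM, a read count scaled to the length of the transcript and to the size of the library, summed over the listed transcripts of a gene. Being scaled by length, these library values can be set side by side between genes, with a limit for short genes given at Tmsb10 and another limit given at Capza1. Summed FPKM was 356985 and 378582 in PROM1 libraries 1 and 2 and 359657 and 384213 in control libraries 1 and 2. Read depth is unknown. All 10 sensory neuron markers examined were present, with a summed level of 2060 and 2440 FPKM in the PROM1 libraries and 2140 and 2460 FPKM in the control libraries. In bulk RNA, fewer cells of a type and less RNA per cell cannot be told apart.

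No member passed the test for a difference between PROM1 and control cultures. Of the 63 genes, 59 had a mean of at least 1 FPKM and were tested, and 0 had a limma adjusted p under 0.05, against a background of 0.0198% (2 of 10109 genes). At an unadjusted limma p under 0.05 there was 1 member (1.69%), Myo16, against a background of 4.69%. Myo16 was lower in PROM1 cultures, where the background was 2.36%, and 0 members were higher, where it was 2.32%. In the authors' deposited table, 0 of the 86 member transcripts were marked significant, against a background of 0.204%, and 2 had an unadjusted p under 0.05 (background 4.71%). The absence of calls does not show equal levels: the 95% interval of the difference reached a median of 0.67 to either side on the log2(FPKM + 1) scale. For 34 of the 59 members it lay within 1 log2 unit of 0, and for 58 of the 59 it held 0.

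More members had a lower than a higher mean in PROM1 cultures, as was the case, to a lesser degree, for all genes tested. In PROM1 cultures 37 of the 59 had a lower mean and 22 a higher mean on the log2 scale, and 62.7% lower stood against a background of 53.5%. The median log2 change was -0.14 over the members and -0.03 over all genes tested. For 14 members (23.7%, background 17.5%) both values of the PROM1 group were under both control values, and for 5 (8.47%, background 16.5%) they were over them. The 14 include near ties. Arpc5 had 37.469 FPKM in PROM1 library 1 against 37.474 FPKM in control library 1. Acta1 had 9.08 FPKM in PROM1 library 2 against 9.10 FPKM in control library 2. The size of the members' median log2 change depended on the libraries numbered 2. It was -0.03 without control library 2, where the median of all genes was -0.01. It was -0.05 without PROM1 library 2, where the median of all genes was 0.03. Among the 10 members with a mean of at least 100 FPKM, a limit set after seeing the data, 9 had a lower mean in PROM1 cultures (90%). Of all 528 genes at that level, 63.1% had a lower mean. At that level 3 of the 10 members (30%), Actb, Pfn1 and Arpc3, did not overlap and were lower in PROM1, against a background of 20.6%.

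**Figure D1:**
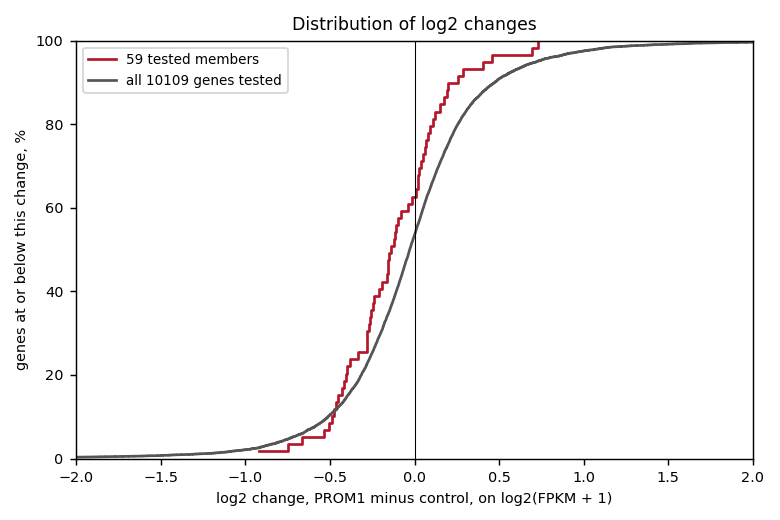
Cumulative share of genes, in percent, by log2 change between PROM1 and control cultures on log2(FPKM + 1), for the 59 tested members and for all 10109 genes tested; changes beyond 2 on either side lie outside the axis. Near 0 the curve of the members lies to the left of the curve of all genes, with medians of -0.14 and -0.03.

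Actins were the largest part of the summed level: Actg1 and Actb together held 52.2% and 52.6% of the members' FPKM in PROM1 libraries 1 and 2 and 53.4% and 48.7% in control libraries 1 and 2. The cytoplasmic gamma-actin gene Actg1 had 4861 and 4965 FPKM in PROM1 libraries 1 and 2, against 5601 and 4802 FPKM in control libraries 1 and 2, and ranked at place 4 of all genes in the table. The groups overlapped, with a log2 change of -0.08 ± 0.22 (SE, n = 2 per group). The cytoplasmic beta-actin gene Actb had 1772 and 1725 FPKM in the PROM1 libraries, against 1892 and 1958 FPKM in the control libraries. Both PROM1 libraries were lower, by little, with a log2 change of -0.14 ± 0.19 (SE) and a 95% interval of -0.61 to 0.33. By the authors' deposited group values the gap was smaller still, at 2123 FPKM for PROM1 and 2147 FPKM for control. Actg1 was 2.74 and 2.88 times the level of Actb in the PROM1 libraries and 2.96 and 2.45 times in the control libraries. The coding sequences of these genes are nearly the same and both have many processed pseudogenes, so the division of reads between them is uncertain.

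The muscle actins were far lower. Acta1, the skeletal actin, had 8.20 and 9.08 FPKM in the PROM1 libraries, against 15.3 and 9.10 FPKM in the control libraries. Control library 1 was high and the other libraries were alike, with a log2 change of -0.42 ± 0.30 (SE). Acta2, the smooth muscle actin, had 3.43 and 1.51 FPKM in the PROM1 libraries, against 3.63 and 3.83 FPKM in the control libraries. PROM1 library 2 was the low one, and the log2 change was -0.50 ± 0.37 (SE). Acta2 was the only marker of the list for smooth muscle and pericytes, out of 8, with a value in the table. All 4 actins had a lower mean with PROM1 (median log2 change -0.28), and 0 passed the limma test.

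A CArG box, the motif bound by serum response factor, is known from actin promoters, and the promoter windows of the members were searched for it in the RefSeq sequences of build GRCm38.p6. A window runs from 250 bases before to 50 after the start. The box has CC, then 6 letters of A or T, then GG, and reads alike on both strands. Of the 55 members with a window, 6 held one (10.9%), against 1.54% of the 7729 genes tested with a window and 1.81% of all 27025 genes with one. A match is a description and not a site of binding. The 6 stretches are shown because they carry the motif, each 60 bases long and upstream of the start, 5′ to 3′ on the strand of the gene, with the box in capitals.
Actg1, chr11:120348551-120348610, minus strand: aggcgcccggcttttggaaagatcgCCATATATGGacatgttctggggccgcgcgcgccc
Acta1, chr8:123894814-123894873, minus strand: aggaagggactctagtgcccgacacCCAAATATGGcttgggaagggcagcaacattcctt
Myl6, chr10:128493025-128493084, minus strand: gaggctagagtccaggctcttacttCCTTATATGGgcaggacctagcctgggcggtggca
Myl3, chr9:110763568-110763627, plus strand: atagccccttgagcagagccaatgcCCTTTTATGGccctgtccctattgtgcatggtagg
Myo1e, chr9:70207290-70207349, plus strand: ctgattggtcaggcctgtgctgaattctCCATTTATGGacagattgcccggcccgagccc
Arpc4, chr6:113377863-113377922, plus strand: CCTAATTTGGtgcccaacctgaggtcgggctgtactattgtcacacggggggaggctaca
Between the first base of the box and the start lay 90 bases in Actg1, 73 in Acta1, 50 in Myl6, 85 in Myl3, 32 in Myo1e and 250 in Arpc4. All 6 genes had a lower mean in PROM1 cultures, as had 62.7% of the tested members and 53.5% of all genes tested, and 0 of the 6 passed the test. Actg1 was at a log2 change of -0.08 ± 0.22 (SE), and at 0.033 without control library 1. Myl3 was at -0.67 ± 1.33 and Myl6 at -0.27 ± 0.42 (SE). The libraries of the groups overlapped in Actg1, Myl3, Myl6 and Arpc4. A link between the motif and the direction was not tested. Serum response factor itself (Srf) had 5.04 and 6.74 FPKM in the PROM1 libraries, against 4.77 and 4.56 FPKM in the control libraries, with a log2 change of 0.27 ± 0.26 (SE).

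Proteins that bind monomers or sever filaments came next in level. The thymosin gene Tmsb10 had 1714 and 2355 FPKM in the PROM1 libraries, against 1945 and 2442 FPKM in the control libraries, and was second among the members by these library values. Cfl1, the main non-muscle cofilin, had 1590 and 1025 FPKM in the PROM1 libraries, against 1707 and 1330 FPKM in the control libraries. In both groups library 2 was the higher for Tmsb10 and the lower for Cfl1, so the groups overlapped. Their log2 changes were -0.12 ± 0.25 for Tmsb10 and -0.24 ± 0.29 for Cfl1 (SE). Tmsb4x, a second thymosin, had 299 and 376 FPKM in the PROM1 libraries, against 266 and 593 FPKM in the control libraries, and the spread within the controls was wider than the gap between groups. In the authors' deposited table the group values of the main Tmsb10 transcript were 5182 FPKM for PROM1 and 5623 FPKM for control, above every library value. In the authors' deposited table the main Actg1 transcript was at 4907 FPKM for PROM1 and 5293 FPKM for control, so by group values Tmsb10 was above Actg1, and the order of these genes depends on which FPKM is used.

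The profilin gene Pfn1 was the tightest of the abundant members. It had 275 and 279 FPKM in the PROM1 libraries, against 321 and 320 FPKM in the control libraries. The groups were separate by more than the spread within each, with a ratio of 0.864, but the limma fit, which pools the spread across genes, gave a log2 change of -0.21 ± 0.17 (SE) and adjusted p = 0.941. The neuronal profilin Pfn2 had 40.1 and 33.7 FPKM in the PROM1 libraries, against 39.4 and 49.3 FPKM in the control libraries, and these overlapped. Cfl2, the muscle-type cofilin, had 20.8 and 18.0 FPKM in the PROM1 libraries, against 20.5 and 35.8 FPKM in the control libraries, where control library 2 alone was high. All 7 tested genes of this class had a lower mean with PROM1 (median log2 change -0.24), and 1 of the 7, Pfn1, had both PROM1 values under both control values, where the share over all genes tested was 17.5%. Tmsb15b2, a low thymosin, had 2.26 and 3.89 FPKM in the PROM1 libraries, against 2.44 and 5.05 FPKM in the control libraries. Pfn4, a profilin known from the testis, averaged under 1 FPKM and was not tested.

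**Figure D2:**
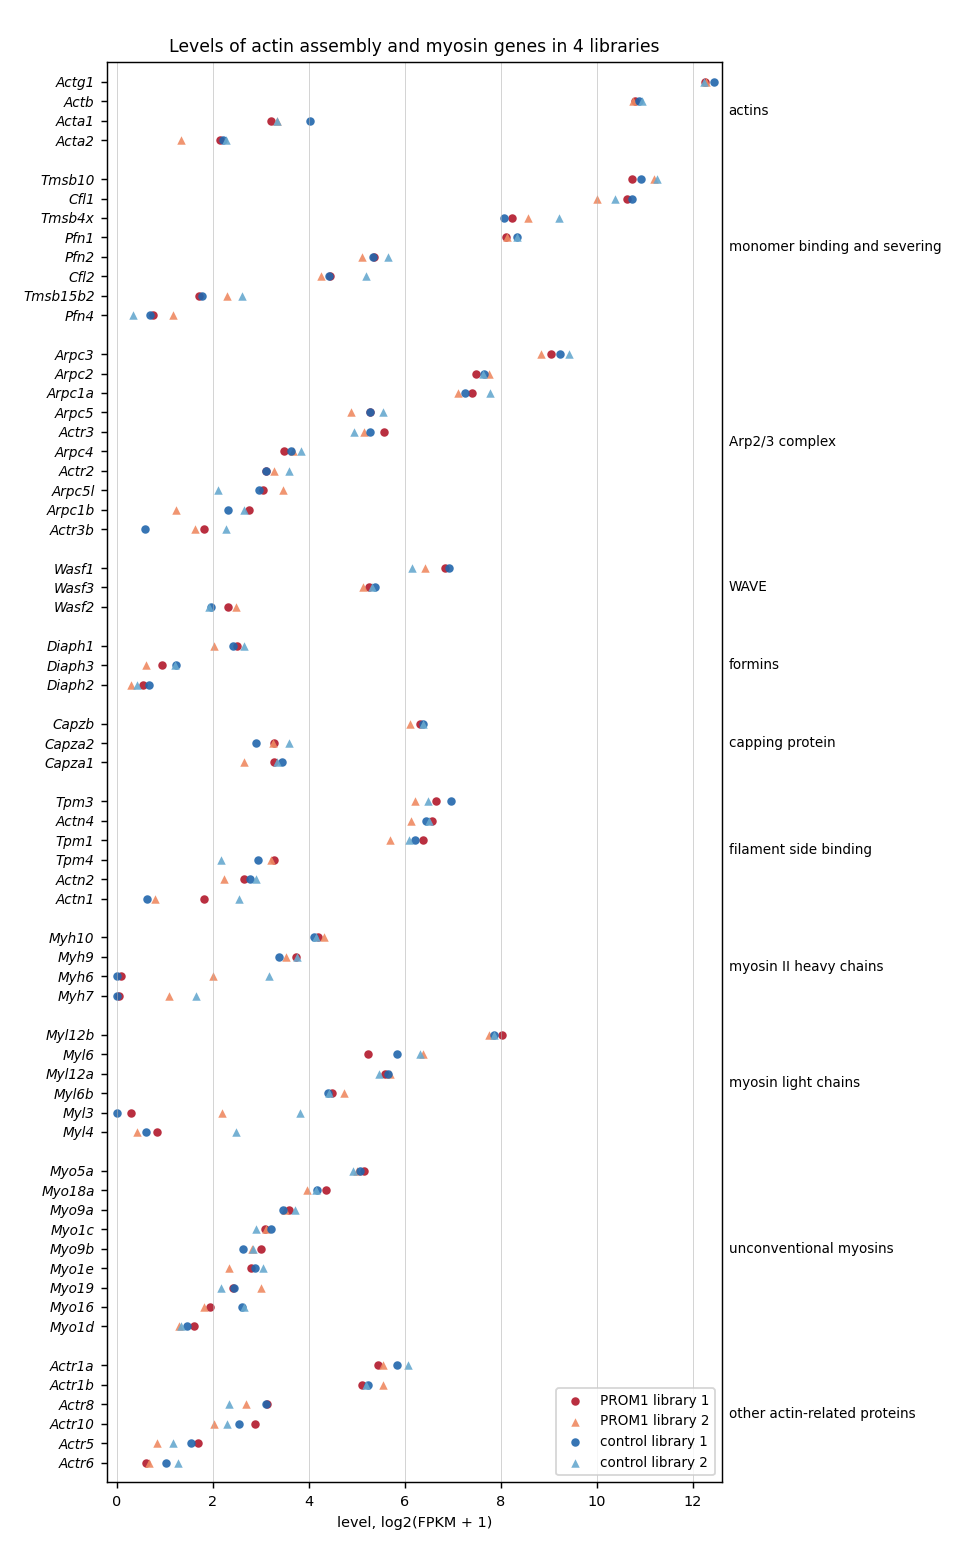
Level of the members in each library on log2(FPKM + 1), by class, with red and orange for PROM1 and blue shades for control libraries and circles for library 1 and triangles for library 2. Actg1, Tmsb10, Actb and Cfl1 stand above 1000 FPKM on average, and Myl3 and Myh6 spread widest between libraries 1 and 2.

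The subunits of the Arp2/3 complex, which join in equal numbers in the protein complex, had very unequal mRNA levels. Arpc3 was the highest, with 527 and 457 FPKM in the PROM1 libraries, against 601 and 681 FPKM in the control libraries. Both PROM1 libraries were lower, with a log2 change of -0.38 ± 0.19 (SE), a 95% interval of -0.86 to 0.10 and limma adjusted p = 0.940. Arpc2 had 177 and 217 FPKM in the PROM1 libraries, against 199 and 197 FPKM in the control libraries, and Arpc1a averaged 152 ± 21.8 FPKM in PROM1 and 184 ± 46.4 FPKM in control cultures (SD, n = 2 each). Neither differed beyond its spread. Actr2 averaged 8.20 ± 0.769 FPKM in PROM1 and 9.32 ± 2.36 FPKM in control cultures (SD, n = 2 each). Across the core subunits Actr2, Actr3, Arpc1a, Arpc2, Arpc3, Arpc4 and Arpc5, the highest was 68.8 and 52.3 times the lowest in the PROM1 libraries and 78.6 and 61.9 times in the control libraries. The values cover the listed transcripts alone, so an unlisted transcript would raise a low subunit. In the authors' deposited table the group values of Actr2 were 12.2 FPKM for PROM1 and 14.3 FPKM for control, above every library value. Arpc3 was at 470 FPKM for PROM1 and 606 FPKM for control there. The size of the gap between subunits thus also depends on which FPKM is used. Actr3 had a log2 change of 0.26 ± 0.24 and Arpc4 of -0.16 ± 0.22 (SE). The low alternative subunits Arpc1b and Actr3b varied widely within a group, with log2 changes of -0.49 ± 0.54 and 0.29 ± 0.60 (SE).

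The alternative subunits Arpc5 and Arpc5l, which take the same place in the complex, differed in direction. Arpc5 had 37.5 and 28.4 FPKM in the PROM1 libraries, against 37.5 and 45.6 FPKM in the control libraries, a log2 change of -0.33 ± 0.23 (SE). PROM1 library 1 and control library 1 were level, and only the libraries numbered 2 were apart. Arpc5l had 7.22 and 10.1 FPKM in the PROM1 libraries, against 6.75 and 3.28 FPKM in the control libraries. Here too the libraries numbered 2 made the gap, with a log2 change of 0.73 ± 0.37 (SE), a 95% interval of -0.20 to 1.66 and limma adjusted p = 0.940. Arpc5l had the largest upward change of the tested members, and it was 0.30 without control library 2. Arpc5 was 5.19 and 2.81 times the level of Arpc5l in the PROM1 libraries and 5.55 and 13.9 times in the control libraries. The difference between the 2 genes was not tested. Of the 10 Arp2/3 genes, 3 had a higher and 7 a lower mean with PROM1 (median log2 change -0.15).

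Activators and elongators were mixed. Wasf1, the WAVE protein of neurons, had 113 and 85.0 FPKM in the PROM1 libraries, against 121 and 70.0 FPKM in the control libraries, with library 1 the higher in both groups. Wasf2, the broadly expressed WAVE protein, had 3.97 and 4.58 FPKM in the PROM1 libraries, against 2.88 and 2.79 FPKM in the control libraries. Its PROM1 libraries were both higher, with a ratio of 1.51 and a log2 change of 0.46 ± 0.27 (SE), and limma gave adjusted p = 0.940. Wasf3 had 37.0 and 33.9 FPKM in the PROM1 libraries, against 40.7 and 38.7 FPKM in the control libraries. The formins were low: Diaph1 had 4.63 and 3.08 FPKM in the PROM1 libraries, against 4.39 and 5.29 FPKM in the control libraries. Diaph3 had 0.928 and 0.519 FPKM in the PROM1 libraries, against 1.36 and 1.33 FPKM in the control libraries, a log2 change of -0.45 ± 0.37 (SE). Diaph2 averaged under 1 FPKM and was not tested.

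Capping protein is a pair of one alpha and one beta chain. The beta chain gene Capzb had 79.3 and 67.5 FPKM in the PROM1 libraries, against 82.3 and 81.7 FPKM in the control libraries, and was 4.54 and 4.92 times the sum of the alpha chain genes in the PROM1 libraries and 5.07 and 4.05 times in the control libraries. The alpha chain gene Capza1 had 8.74 and 5.26 FPKM in the PROM1 libraries, against 9.82 and 9.17 FPKM in the control libraries, with a log2 change of -0.43 ± 0.29 (SE). In the authors' deposited table the group values of Capza1 were 24.5 FPKM for PROM1 and 24.2 FPKM for control. These were above every library value and not lower with PROM1. By group values the main Capzb transcript was at 84.1 FPKM for PROM1 and 90.2 FPKM for control, and Capza2 at 10.5 and 10.6 FPKM. Capzb was thus above the alpha chains by group values too. Both the decrease of Capza1 and the size of the excess of Capzb depend on which FPKM is used. By library values, PROM1 library 2 was the low one for both Capzb and Capza1. Capza2 overlapped between groups, with a log2 change of 0.02 ± 0.30 (SE).

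Among the proteins along filaments, Tpm3 and Tpm1 were the main tropomyosins and Actn4 the main alpha-actinin. Tpm3 had 99.5 and 73.5 FPKM in the PROM1 libraries, against 123 and 87.9 FPKM in the control libraries. The groups overlapped and library 1 was higher in both, with a log2 change of -0.28 ± 0.26 (SE). Tpm4 had 8.75 and 8.31 FPKM in the PROM1 libraries, against 6.65 and 3.52 FPKM in the control libraries. Its PROM1 libraries were alike and above both controls, with a ratio of 1.68, a log2 change of 0.70 ± 0.32 (SE), a 95% interval of -0.12 to 1.51 and limma adjusted p = 0.940. The log2 change of Tpm4 was 0.32 without control library 2. Actn4 averaged 81.4 ± 17.0 FPKM in PROM1 and 87.8 ± 2.62 FPKM in control cultures (SD, n = 2 each). Actn2, the striated muscle form, had 5.31 and 3.67 FPKM in the PROM1 libraries, against 5.83 and 6.51 FPKM in the control libraries, a log2 change of -0.40 ± 0.28 (SE). Actn1 was at -0.28 ± 0.73 (SE), with the libraries of each group far apart.

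**Figure D3:**
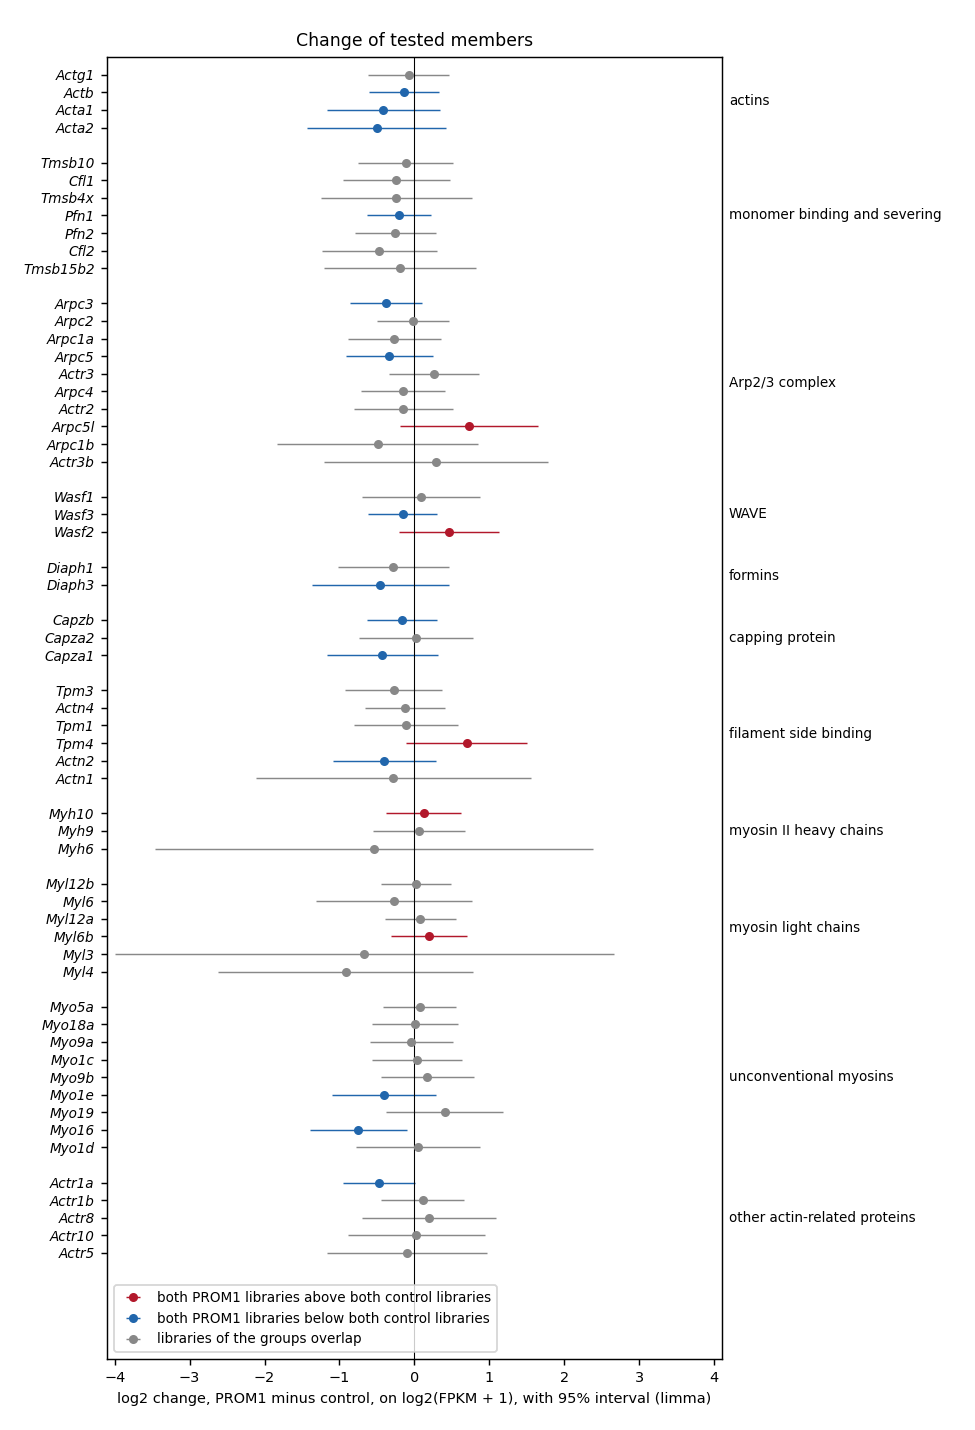
Log2 change between PROM1 and control cultures of the tested members on log2(FPKM + 1), with 95% intervals from limma, by class and, within a class, from the highest to the lowest mean level. The interval of Myo16 lies below 0 and those of the other members shown hold 0; intervals are widest for Myh6 and Myl3.

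Non-muscle myosin II had small differences. The heavy chain genes Myh10 and Myh9 code for the motors that contract actin in most cells. Myh10 had 17.2 and 19.0 FPKM in the PROM1 libraries, against 16.2 and 16.8 FPKM in the control libraries, a log2 change of 0.12 ± 0.20 (SE). Myh9 had 12.4 and 10.5 FPKM in the PROM1 libraries, against 9.48 and 12.5 FPKM in the control libraries, a log2 change of 0.06 ± 0.24 (SE). The 95% interval was -0.38 to 0.62 for Myh10 and -0.55 to 0.67 for Myh9. The regulatory light chain gene Myl12b had 258 and 214 FPKM in the PROM1 libraries, against 231 and 231 FPKM in the control libraries. It was 5.49 and 4.21 times the level of its near-identical copy Myl12a in the PROM1 libraries and 4.68 and 5.35 times in the control libraries, and the division of reads between these copies is uncertain. Myl6b, an essential light chain, had 21.5 and 25.6 FPKM in the PROM1 libraries, against 20.2 and 20.4 FPKM in the control libraries, a log2 change of 0.20 ± 0.20 (SE).

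The striated muscle myosins Myh6, Myh7 and Myl3 were higher in library 2 than in library 1 of both groups. Myh6 and Myh7 are the heavy chains of heart muscle, and Myl3 and Myl4 are light chains of striated and embryonic muscle. Myh6 had 0.0676 and 3.01 FPKM in PROM1 libraries 1 and 2, against 0 (as listed) and 8.01 FPKM in control libraries 1 and 2. Myl3 had 0.218 and 3.57 FPKM in the PROM1 libraries, against 0 (as listed) and 13.0 FPKM in the control libraries. Myh7 had 0.0313 and 1.13 FPKM in the PROM1 libraries, against 0 (as listed) and 2.16 FPKM in the control libraries. These heavy chains and Myl3 were near 0 in both libraries numbered 1. Myl4 had 0.787 and 0.336 FPKM in the PROM1 libraries, against 0.520 and 4.61 FPKM in the control libraries, so it was high in control library 2 alone. The 4 genes summed to 1.10 and 8.05 FPKM in the PROM1 libraries and to 0.520 and 27.8 FPKM in the control libraries.

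Other cardiac genes, chosen after these values were seen, had a like distribution. The cardiac troponin genes Tnnt2 and Tnni3 had 2.36 and 5.03 FPKM in PROM1 library 2 and 5.05 and 10.7 FPKM in control library 2. In the libraries numbered 1, Tnni3 was listed at 0 in both, and Tnnt2 had 0.0163 FPKM in the PROM1 library and was listed at 0 in the control library. Tnnc1, the troponin C gene of heart and slow muscle, had 1.33 and 8.05 FPKM in the PROM1 libraries, against 0 (as listed) and 5.00 FPKM in the control libraries. Of the 10 skeletal muscle markers, 2 had values, Acta1 and Myl4. The fitted log2 changes of Myh6, Myl3 and Myl4 (-0.54 ± 1.17, -0.67 ± 1.33 and -0.92 ± 0.68, SE) have the widest intervals of the members that were tested, apart from Actn1. The log2 change of Myh6 was 1.05 without control library 2. Without Myh6, Myl3 and Myl4, 34 members had a lower and 22 a higher mean in PROM1 cultures, with a median of -0.12.

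**Figure D4:**
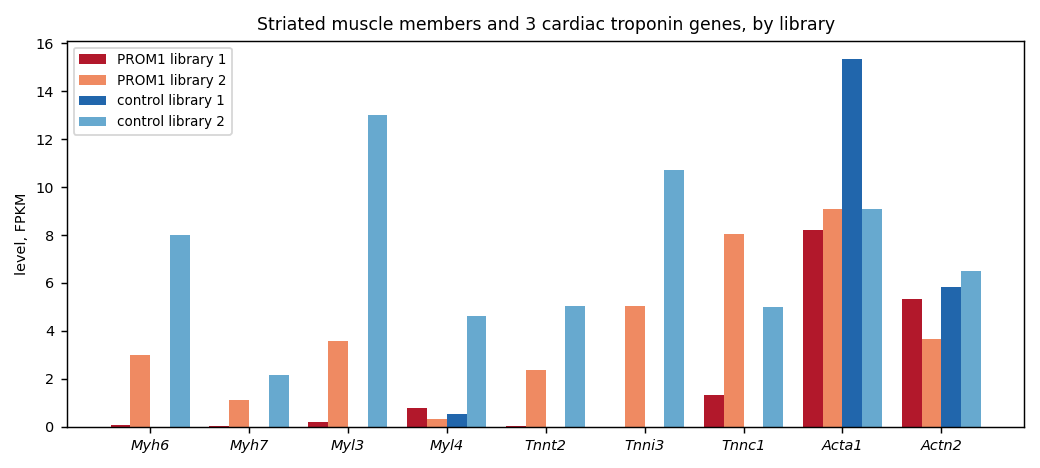
Level in FPKM, on a linear axis from 0, of 6 striated muscle members and 3 cardiac troponin genes in each library (PROM1 in red and orange, control in blue shades). Myh6, Myh7, Myl3, Tnnt2 and Tnni3 stand above 1 FPKM in the libraries numbered 2 and below it in those numbered 1, while Acta1 and Actn2 are present in all 4 libraries.

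Among the unconventional myosins, Myo16 had the lowest limma p of all members. Myo16, a myosin with ankyrin repeats known from the developing brain, had 2.82 and 2.53 FPKM in the PROM1 libraries, against 5.11 and 5.23 FPKM in the control libraries. The pairs were tight and well apart, with a ratio of 0.517. The log2 change was -0.75 ± 0.26 (SE) with a 95% interval of -1.40 to -0.10, and it lay between -0.80 and -0.69 on leaving out 1 library at a time. The limma p of Myo16 was 0.0306 unadjusted, and its adjusted p of 0.940 did not pass. In the authors' deposited table Myo16 was at 3.07 FPKM in PROM1 and 6.23 FPKM in control, with p = 0.00185 and q = 0.423, the lowest p of the 86 member transcripts.

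The other unconventional myosins had smaller differences. Myo5a, which carries vesicles and endoplasmic reticulum along actin, was the highest, with 34.3 and 31.0 FPKM in the PROM1 libraries, against 32.7 and 29.5 FPKM in the control libraries. Myo1e, a membrane-linked myosin of endocytosis, had 5.91 and 4.05 FPKM in the PROM1 libraries, against 6.35 and 7.32 FPKM in the control libraries, a log2 change of -0.40 ± 0.28 (SE). Myo19, which acts on mitochondria, averaged 5.67 ± 1.89 FPKM in PROM1 and 3.96 ± 0.663 FPKM in control cultures (SD, n = 2 each), and the groups overlapped. Myo9a and Myo9b, motors of the class IX myosins, had log2 changes of -0.04 ± 0.22 and 0.17 ± 0.25 (SE). Myo1c, Myo1d and Myo18a overlapped between groups. Of the 10 genes, 7 had a higher and 3 a lower mean with PROM1 (median log2 change 0.04).

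The remaining actin-related proteins do not nucleate filaments. Actr1a and Actr1b form the short filament of dynactin, the partner of the dynein motor. Actr1a had 42.2 and 45.5 FPKM in the PROM1 libraries, against 56.6 and 66.5 FPKM in the control libraries. Both PROM1 libraries were lower, with a ratio of 0.712, a log2 change of -0.48 ± 0.19 (SE), a 95% interval of -0.96 to 0.0019 and limma adjusted p = 0.940. Without each library in turn the log2 change of Actr1a lay between -0.59 and -0.36. Its homolog Actr1b had 33.5 and 45.5 FPKM in the PROM1 libraries, against 36.5 and 35.8 FPKM in the control libraries, and these overlapped. Actr10, another dynactin subunit, and Actr5, Actr6 and Actr8, subunits of chromatin remodelers, were all at a mean of under 10 FPKM. Actr6 was not tested, and the other 3 overlapped between groups.

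The transcripts of a gene were less steady than their sum. Of the members, 10 had more than 1 listed transcript. Tpm1 summed to 82.6 and 50.3 FPKM in the PROM1 libraries, against 73.1 and 66.7 FPKM in the control libraries, over 7 transcripts. Its transcript NM_001164252 held 63.8% of Tpm1 in PROM1 library 1 and 70.6% in control library 1, but 0.0000198% in PROM1 library 2 and 6.56% in control library 2. NM_001164253 held 50.3% of Tpm1 in PROM1 library 2 and at most 0.0398% in the other libraries. Myl6 was likewise divided, with NM_001317220 at 70.2% and 0.00489% in the PROM1 libraries and 64.3% and 87.8% in the control libraries. The leading transcript was the same in all 4 libraries for Actg1, Capzb, Myo9b, Tmsb10 and Tpm3. Cufflinks divides the reads of a gene among transcripts that share most of their sequence, so these shares depend on that division.

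A single transcript separated the groups in Tpm3. NM_001253738 had 7.26 and 5.01 FPKM in the PROM1 libraries, against 0.00266 and 0.0060 FPKM in the control libraries, which was 7.29% and 6.82% of Tpm3 in the PROM1 libraries and 0.00216% and 0.00683% in the control libraries. In the authors' deposited table it was at 4.44 FPKM in PROM1 and 0.00343 FPKM in control, with p = 0.0246 and q = 0.865. It is named after its values were seen. With one row per transcript, limma called 0 of 79 member transcripts and 0 of all 12288, with 2 of the members (2.53%) at an unadjusted p under 0.05, against a background of 4.21%.

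**Figure D5:**
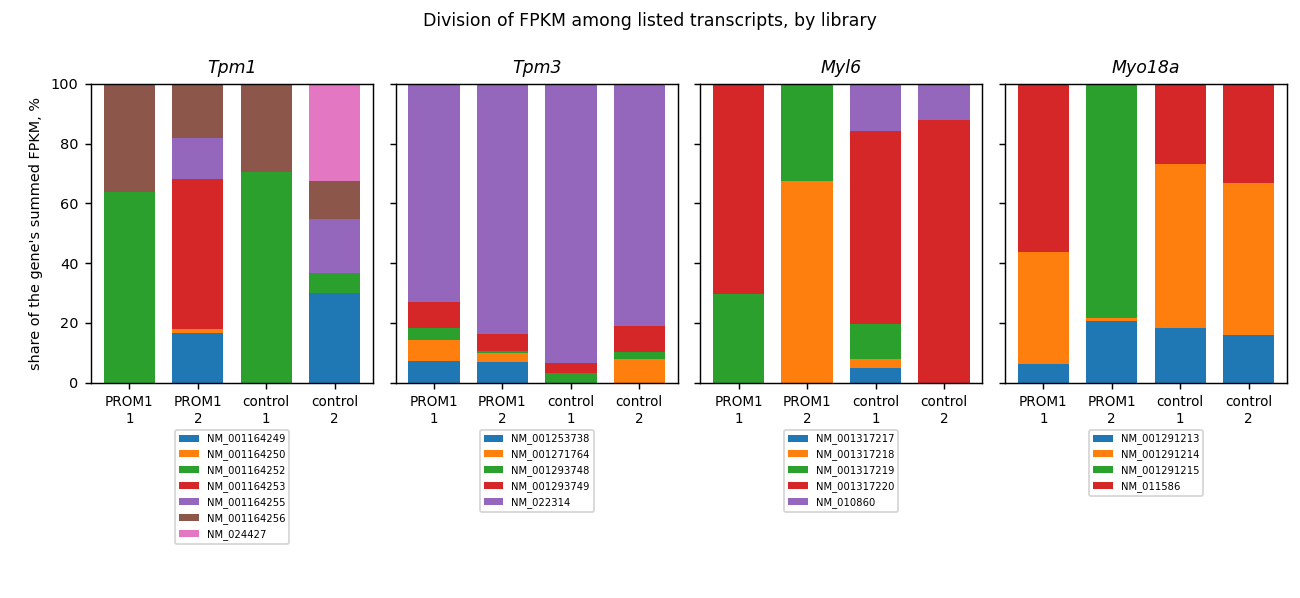
Share of the summed FPKM of Tpm1, Tpm3, Myl6 and Myo18a held by each listed transcript, in percent, in PROM1 libraries 1 and 2 and control libraries 1 and 2. The leading transcript of Tpm1 is the same in the 2 libraries numbered 1, and that of Tpm3 is the same in all 4 libraries.

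Other actin regulators were read from the same fit, in lists chosen by textbook role. Of 106 listed genes, 85 were in the table and 82 were tested, and 0 were called by limma, with 1 (1.22%) at an unadjusted p under 0.05, against 4.69% of all genes tested. A higher mean with PROM1 was seen for 46 and a lower one for 36 (median log2 change 0.06). Across all genes tested, 46.5% had a higher mean, and the median log2 change was -0.03. Of the 82 regulators, 22 (26.8%) had both PROM1 values over both control values, against 16.5% of all genes tested, and 12 (14.6%) had them under, against 17.5%. The list of crosslinkers and membrane linkers had 11 of 17 higher, with a median of 0.12, and among them Fscn1, the bundling protein fascin of filopodia, had 517 and 436 FPKM in the PROM1 libraries, against 502 and 378 FPKM in the control libraries. Pls3, a plastin, had the largest change of that list, at 0.33 ± 0.31 (SE). The list of other nucleators and elongators had 9 of 13 higher, with Evl, an Ena/VASP protein, at 58.1 and 58.1 FPKM in the PROM1 libraries, against 56.3 and 41.6 FPKM in the control libraries, and the formin Fmn1 at a log2 change of 0.75 ± 0.37 (SE).

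The list of severing, turnover and monomer-binding genes had 7 of 16 higher and 9 lower. Coro1b, a coronin that works at Arp2/3 branches, had 15.2 and 11.5 FPKM in the PROM1 libraries, against 20.3 and 31.9 FPKM in the control libraries. It was the 1 regulator with an unadjusted p under 0.05, at a log2 change of -0.89 ± 0.29 (SE) and limma adjusted p = 0.940. Dstn, the cofilin relative destrin, was the highest of that list, with a log2 change of -0.02 ± 0.27 (SE). WAVE partners and Arp2/3 activators had 7 of 12 higher, with Cyfip2, a subunit of the WAVE complex, at 260 and 240 FPKM in the PROM1 libraries, against 250 and 238 FPKM in the control libraries, and Wipf3 at -0.61 ± 0.62 (SE). In the list for SRF and smooth muscle targets, 6 of 12 genes had values. Of the 5 tested, 3 had a higher and 2 a lower mean with PROM1. Tagln2, a transgelin, had 696 and 510 FPKM in the PROM1 libraries, against 758 and 684 FPKM in the control libraries.

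Markers of other cells were also read. Schwann cell and satellite glia markers, 5 of 10 in the table, summed to 44.7 and 45.9 FPKM in the PROM1 libraries and 76.5 and 56.3 FPKM in the control libraries. Fibroblast markers, 4 of 8, summed to 7.94 and 10.0 FPKM in the PROM1 libraries and 3.01 and 4.72 FPKM in the control libraries, and Col1a1 and Col1a2 were higher in both PROM1 libraries than in either control. Macrophage markers, 2 of 8, summed to 1.79 and 1.99 FPKM in the PROM1 libraries and 3.80 and 3.51 FPKM in the control libraries, and none of the 6 endothelial markers had a value. The glial, fibroblast and macrophage sums did not overlap between the groups, but several of their genes did: Sox10, S100b, Gjc3, Fbln1, Postn and Aif1. Mbp, Pmp22 and C1qb were lower in both PROM1 libraries than in either control. Pmp22 had 18.8 and 20.7 FPKM in the PROM1 libraries, against 44.9 and 28.8 FPKM in the control libraries. Of all genes tested, 16.5% had both PROM1 values over both control values and 17.5% had them under. Erythroid markers, 4 of 6, summed to 461 and 595 FPKM in the PROM1 libraries and 503 and 626 FPKM in the control libraries, mostly from the globin gene Hba-a1, and the groups overlapped. The part of these cells in the results was not tested.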

How the data were processed

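Per the submitters' processing notes, reads were processed with CASAVA and TopHat2 on mouse build mm9; the sources used here do not give the annotation version, strand use or the tool of the comparison. Per the file headers, the authors deposited an FPKM per transcript and library from Cufflinks, an FPKM per group, and the p-values and q-values of their comparison. The deposited table holds 14236 transcripts of status OK, and a gene sum covers these alone. FPKM keeps no read count, and no steps of whole reads were found in low values (at most 1.72% of transcripts shared a ratio between libraries), so no counting interval is given.

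Symbols came from the descriptions, and 241 transcripts were named by accession through RefSeq (GRCm38.p6). Transcripts with a missing library value (39, none of a member) were left out. One accession-named Actn1 transcript was kept out of Actn1, since members were read from descriptions. FPKM was summed per symbol, and genes averaging 1 FPKM or more entered limma 3.58.1 (R 4.3.3), run with an intensity trend on log2(FPKM + 1), unpaired, 2 PROM1 against 2 control libraries, with Benjamini-Hochberg adjustment over all 10109 genes tested. Fold changes on this scale understate the change of low genes. The smallest two-sided p of an exact permutation test of 2 against 2 is 0.333. Scripts were tested on simulated data. Where nothing says that samples came from separate animals, p-values measure the spread between these samples alone.

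Members and lists were chosen with earlier results of these data known. Named are members in the 12 highest levels, up to 10 per direction with groups that do not overlap, the highest and the most changed of each class, and the same of each regulator list; others are named to complete a class. One member and one regulator list are counted in the totals and not reported here. The alternatives were a pseudocount of 0.1, other level filters, scaling, transcripts, no small RNA records, no trend, a replicate block, leaving out each library, and, chosen after seeing the data, the added Actn1 transcript.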

Additional observations from a re-analysis of the deposited data

How the results depend on the processing

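No member was called by limma under any of the 13 alternatives. Over all genes, 2 were called; 0 were called with one row per transcript and 0 without small RNA records, 3 with a pseudocount of 0.1, and between 2 and 15 when each library was left out. The first 2 of these had 517 and 506 at an unadjusted p under 0.05. The count was 15 without PROM1 library 2, 5 without control library 2 and 4 without PROM1 library 1. The cause of these shifts was not tested. The median log2 change of the members lay between -0.16 and -0.026 when each library was left out, and it was -0.14 with all 4. Of 32 named members, 22 kept their direction under the alternatives run. The other 10 changed sign only when a library was left out. Leaving out each library gave log2 changes of -0.19 to 0.033 for Actg1 (above 0 without control library 1) and -0.56 to 0.077 for Cfl1 (above 0 without PROM1 library 2). The range was -2.12 to 1.05 for Myh6, above 0 without control library 2 and, at 0.42, without PROM1 library 1. It was -1.86 to 0.023 for Myl4 and -0.82 to 0.34 for Tmsb4x, both above 0 without control library 2. Tmsb10 ranged from -0.35 to 0.11, at 0.05 without control library 2 and 0.11 without PROM1 library 1. Wasf1 was at -0.30 and Myo5a at -0.0030 without control library 2, and at -0.11 and -0.0018 without PROM1 library 1. Without PROM1 library 1, Arpc2 was at 0.13 and Myl12b at -0.11, and Myl12b reached 0.16 without PROM1 library 2. With 1 library left in a group, the lone library is assumed to vary like the others. Same-numbered libraries had deviations with r = 0.14 across all genes tested and 0.48 across the members. Of the members, Myl3 and Myh6 differed most between libraries 1 and 2, in the same direction in both groups. Such values weigh heavily on r, and r without them was not computed. By sign alone, 29 of the 59 members (49.2%) deviated in the same direction in both groups, against 57.3% of all genes tested. Moreover, 2 pairs do not establish a pairing. With the replicate block, 2 genes and 0 members were called by limma, with 637 genes and 2 members at an unadjusted p under 0.05. Read depth is unknown, so no limit of detection can be set.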
